A study of Mus musculus with 25 samples.

Results

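Raising the concentration of hypochlorous acid (HOCl) in the medium of a mouse macrophage line to 2.8 mM, the dose above 2.1 mM in the series, was examined by comparing the 3 arrays labelled 2.8 mM with the 3 labelled 2.1 mM. These 6 arrays of 25 were chosen by their labels alone, and every probe set other than the array's own controls was compared, 45037 of 45101. The 2.8 mM cells and the 2.1 mM cells were RAW 264.7, an established macrophage-like line, kept in DMEM with fetal serum, HEPES and antibiotics and exposed for 6 h when nearly confluent. HOCl had been added to the medium itself, so the dose is the amount given and not the amount that reached the cells. The remaining arrays came from untreated cells (0 mM, 4 arrays) and, with 3 arrays per dose, from cells given 0.14, 0.35 or 0.7 mM or the 2 further doses 1.4 and 3.5 mM. RNA of each sample was hybridized to its own Affymetrix mouse genome array. The series' design text calls the replicates biological but does not say that they came from separate experiments, so the p-values measure the spread between these arrays.

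Neutrophils and some macrophages make HOCl from hydrogen peroxide and chloride with myeloperoxidase, and the acid oxidizes thiols, methionine and amines of proteins. Cells meet such oxidants in layers. NRF2, freed from its thiol-rich sensor KEAP1, turns on genes for glutathione, thioredoxin and heme breakdown, HSF1 turns on chaperones when proteins unfold, ATF4 is translated when the kinases of the integrated stress response are active, and MAP kinases switch on the immediate early genes and the GADD45 family. With rising oxidant doses survival gives way to growth arrest and death.

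Values are deposited log2 signals per probe set with the median of each array at 0. The base of the logarithm is not stated. It was taken as 2 because of the range covered, on which all folds depend. A difference is the 2.8 mM mean minus the 2.1 mM mean, tested with limma in a fit of all 25 arrays, and was called at an adjusted p under 0.05. For a gene, the probe set with the highest mean over all arrays was used, which gives 18193 genes, unless stated. Levels of different probe sets were not compared with each other. In whole-culture RNA, fewer cells of a type and less RNA per cell cannot be told apart.

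Before the comparison itself, the 3 arrays at 2.8 mM were not alike. Replicate 1 had 432 genes at least 2-fold above and 580 at least 2-fold below the 2.1 mM mean, replicate 2 had 38 above and 28 below, and replicate 3 had 42 above and 115 below. On a straight line that runs from the mean of 2.8 mM replicates 2 and 3 at 0 to the 3.5 mM mean at 1, replicate 1 lay at 0.543, where the 3.5 mM arrays lay at 0.846, 1.06 and 1.1. Across probe sets, which are no independent replicates, replicates 2 and 3 correlated with the 2.1 mM arrays at a mean r of 0.993 and 0.9909, and replicate 1 at 0.9747. With the 3.5 mM arrays replicate 1 correlated about as much (0.9755), and slightly more with the 1.4 mM arrays (0.9771) and the other 2.8 mM arrays (0.9768). No pair of arrays held identical values. Poly-A spike levels, at 1.69 to 1.96 on the 2.8 mM arrays and 1.6 to 2.14 on the 2.1 mM arrays, overlapped, while the log2 signal of the 3′ over the 5′ control probe sets of Actb was 0.564, 0.45 and 0.456 at 2.8 mM and 0.436, 0.311 and 0.355 at 2.1 mM. The part of that measure in the results was not tested. Macrophage genes were high on all 6 arrays, with Lyz2, lysozyme, at 8.15 to 8.26, Csf1r, the receptor for macrophage colony-stimulating factor, at 7.29 to 7.65 and Cd68 at 6.71 to 7.23. None of the 19 measured macrophage identity genes passed the test, and none of the markers of T cells, B cells, neutrophils and mast cells, fibroblasts, epithelium and endothelium, or erythroid cells did. In each trio of 2.8 mM values replicate 1 therefore stands first, and counts, medians and the main differences are also given without it. The cause of its distance from replicates 2 and 3 was not tested.

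**Figure D1:**
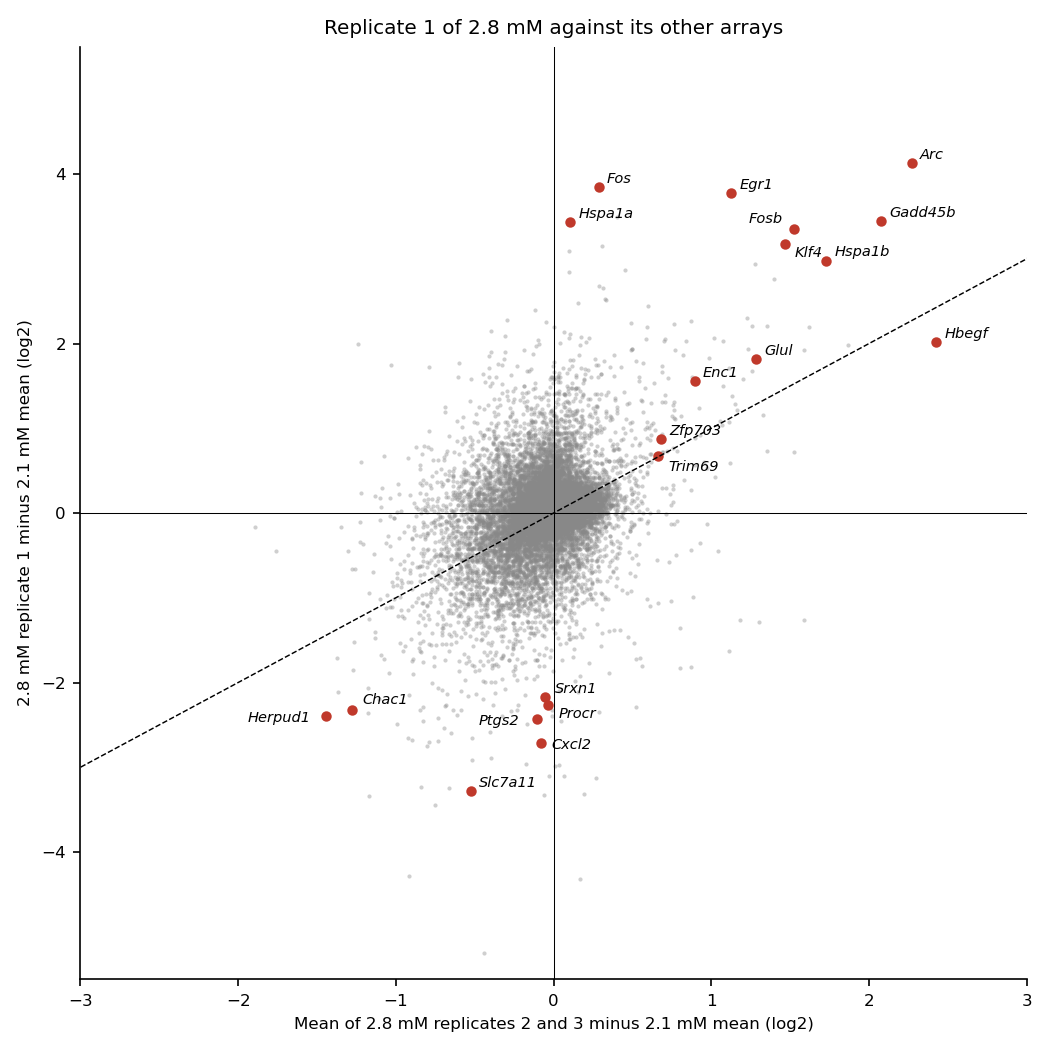
Each grey point is 1 of 18193 genes, placed by the log2 difference of 2.8 mM replicates 2 and 3 (their mean, horizontal axis) and of 2.8 mM replicate 1 (vertical axis) from the 2.1 mM mean, with genes named in the text in red and equal differences on the dashed line. Fos (3.85 on replicate 1) and Hspa1a stand high on replicate 1 alone, Srxn1, Procr, Ptgs2 and Cxcl2 stand low on it alone, and Gadd45b, Arc, Glul and Hbegf stand high on both axes.

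At 2.8 mM, 6 genes rose over 2.1 mM by their brightest probe set: Gadd45b, Arc, Glul, Enc1, Zfp703 and Trim69. Another 2 genes, Rbms1 and Zbtb20, fell by probe sets that were not their brightest. In all, 11 of 45037 probe sets passed the test, 8 of them higher and 3 lower (limma, adjusted p under 0.05, 0.0244% of those tested), and 8 of the 11 differed at least 2-fold. At the level of genes 6 of 18193 passed (0.033%). Without replicate 1 of 2.8 mM the test called 8 probe sets (0.0178%), 4 of them among the 11. Fitted on the 6 arrays alone 143 probe sets passed (0.318%), 63 higher and 80 lower, and 8 of the 11 were among them. Arc (adjusted p = 0.0675), Enc1 (0.0687) and the dimmer called probe set of Gadd45b (0.0595) did not pass in that fit. On the 5 arrays without replicate 1, 3334 passed (7.4%), 730 higher and 2604 lower, including all 11. The counts thus depend on the arrays that set the spread, and the number of arrays limits the precision of every value. The median SD of a probe set was 0.1298 at 2.8 mM, 0.0803 there without replicate 1, and 0.1062 at 2.1 mM.

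Gadd45b, a stress sensor that binds upstream kinases of the p38 and JNK pathways, had a log2 signal of 5.90, 4.38 and 4.67 at 2.8 mM and of 2.53, 2.40 and 2.42 at 2.1 mM. It was high on all 3 arrays at 2.8 mM and highest on replicate 1, and the groups did not overlap. It rose 5.78-fold (log2 difference 2.53, SE 0.351, limma adjusted p = 0.00836), and without replicate 1 the log2 difference was 2.07 (adjusted p = 0.0338). The call was lost without 2.1 mM replicate 1, 2 or 3 (adjusted p = 0.065, 0.0875 and 0.0827) and in a fit of the arrays of 1.4 to 3.5 mM (0.128). Its second probe set differed by 2.02 (adjusted p = 0.0151; 0.0592 without replicate 1), while the dimmest of its 3 differed by 0.30 (adjusted p = 0.816). Over the lower doses Gadd45b had means of 1.74 at 0 mM and 2.40 at 1.4 mM, and the mean at 3.5 mM was 3.41.

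Arc, an immediate early gene named for its role at synapses, had 5.14, 3.11 and 3.44 at 2.8 mM and 1.12, 0.86 and 1.03 at 2.1 mM. All arrays at 2.8 mM lay above all arrays at 2.1 mM, with replicate 1 the highest. It rose 7.42-fold (log2 difference 2.89, SE 0.458, adjusted p = 0.0191), and the log2 difference without replicate 1 was 2.27, where the call was lost (adjusted p = 0.0989). It was also lost without 2.8 mM replicate 3 and without each 2.1 mM replicate, as were the calls of Glul (brightest probe set), Enc1 and Zfp703, all at an adjusted p of at most 0.241. In the fit of the arrays of 1.4 to 3.5 mM these 4 calls were lost too (adjusted p = 0.212, 0.149, 0.174 and 0.128 in that order). Zfp703 also lost its call after quantile normalization (0.0797) and with a trended and robust prior (0.105). At 0, 1.4 and 3.5 mM the Arc means were 1.24, 1.20 and 1.71, so of these doses 2.8 mM was the highest for Arc.

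Glul, glutamine synthetase, which joins ammonia to glutamate, had 4.15, 3.57 and 3.68 at 2.8 mM and 2.53, 2.28 and 2.20 at 2.1 mM. It rose 2.76-fold (log2 difference 1.46, SE 0.236, adjusted p = 0.0212), with a log2 difference of 1.29 without replicate 1 (adjusted p = 0.184). Its other, dimmer probe set, also called, had 2.59, 2.80 and 2.71 at 2.8 mM against 1.52, 1.52 and 1.34 at 2.1 mM, and there replicate 1 was the lowest of the 2.8 mM arrays. That probe set differed by 1.24 (adjusted p = 0.0151) and kept its call without replicate 1 (adjusted p = 0.0433), but lost it without 2.8 mM replicate 2 (0.0675) or 3 (0.0922) and without 2.1 mM replicate 1 (0.0706), 2 (0.129) or 3 (0.13).

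Enc1, a Kelch and BTB protein that binds actin, had 3.26, 2.54 and 2.67 at 2.8 mM and 1.70, 1.61 and 1.81 at 2.1 mM. It rose 2.17-fold (log2 difference 1.12, SE 0.171, adjusted p = 0.0151), with 0.90 without replicate 1 (adjusted p = 0.0813). The dimmer probe sets of Enc1 differed by 1.49 (limma, adjusted p = 0.355) and 0.03 (limma, unadjusted p = 0.802), and neither passed. Zfp703, a zinc finger repressor, had 3.10, 2.89 and 2.94 at 2.8 mM against 2.32, 2.17 and 2.21 at 2.1 mM. Its 3 arrays lay close together at each dose, and it rose 1.67-fold (log2 difference 0.74, SE 0.114, adjusted p = 0.0151). Without replicate 1 the difference was 0.68 (adjusted p = 0.109). The dimmer probe sets of Zfp703 differed by only -0.05 and 0.16 (limma, unadjusted p = 0.747 and 0.309), so the rise rests on its brightest probe set. Trim69, a RING-type ubiquitin ligase, was dim, at -0.37, -0.44 and -0.32 at 2.8 mM and -0.94, -1.16 and -1.02 at 2.1 mM. Its 2.1 mM level lay below the lower quartile of all probe sets on those arrays (-0.897, -0.897 and -0.896), so no fold is given. It rose by 0.66 on the log2 scale (SE 0.0838, adjusted p = 0.00628), and by 0.66 also without replicate 1 (adjusted p = 0.0338). Its call was lost without 2.1 mM replicate 2 (adjusted p = 0.0615) and in the fit of the arrays of 1.4 to 3.5 mM (0.121). Trim69 had means of -1.05 at 0 mM, -1.05 at 1.4 mM and -0.97 at 3.5 mM.

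Rbms1, which binds single-stranded nucleic acids, had on its called probe set a log2 signal of 3.54, 3.45 and 3.46 at 2.8 mM and of 4.60, 4.51 and 4.44 at 2.1 mM. The 3 arrays at 2.8 mM were close together and all below 2.1 mM. It fell 2.04-fold (log2 difference -1.03, SE 0.137, adjusted p = 0.00653), and without replicate 1 by 1.06 on the log2 scale (-1.06, adjusted p = 0.0338). The call was lost without 2.1 mM replicate 1 (adjusted p = 0.065) or 2 (0.0615), while its brightest probe set differed by -0.76 (adjusted p = 0.301). Zbtb20, a zinc finger repressor, had on the called probe set with the lower p -0.78, -0.83 and -0.95 at 2.8 mM and 0.19, -0.03 and -0.13 at 2.1 mM. Its 2.8 mM level lay near the lower quartile of all probe sets (-0.871, -0.887 and -0.886), so no fold is given. That probe set fell by 0.87 (log2 difference -0.87, SE 0.137, adjusted p = 0.0191; -0.90 and adjusted p = 0.0626 without replicate 1), and the other called probe set fell by 1.155 (-1.155, adjusted p = 0.0456; 0.236 without replicate 1). Over the 25 omissions of 1 array the calls of these probe sets held in 19 and 9, and neither held when any 1 array of 2.1 or 2.8 mM was left out. Both were also lost in the fit of the arrays of 1.4 to 3.5 mM (adjusted p = 0.121 and 0.191). All 9 Zbtb20 probe sets had negative differences, from -1.155 to -0.11, and 2 of them passed.

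**Figure D2:**
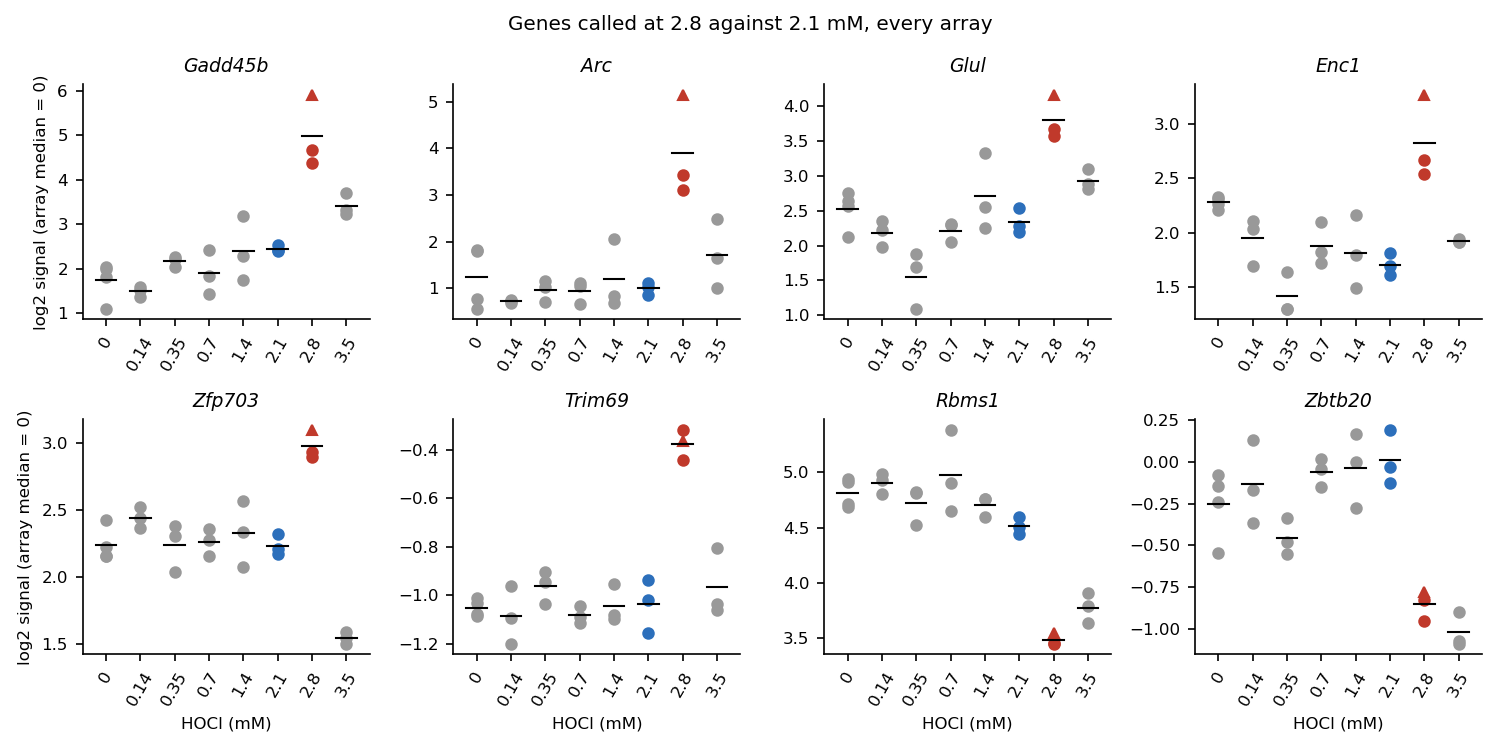
Log2 signal (vertical axis, array median at 0) of the 8 genes called at 2.8 against 2.1 mM, on every array by HOCl dose in mM (horizontal axis, low to high). Red marks 2.8 mM (triangle, replicate 1), blue 2.1 mM, grey the other doses and bars the dose means; Gadd45b, Arc, Glul, Enc1, Zfp703 and Trim69 stand higher at 2.8 mM than at 2.1 mM, and Rbms1 and Zbtb20 (each on its called probe set with the lowest p) stand lower.

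For the windows of 250 bases before the transcription start, RefSeq's table (build GRCm38.p6) held 3 of the 6 genes that rose, Gadd45b, Glul and Trim69. Each of the 3 windows holds CCAAT on either strand, a pentamer in 39.4% of the 14452 windows of all genes. Of these 3 genes, Gadd45b and Glul were called on more than 1 probe set. Their windows are printed 5′ to 3′ in the gene's direction, with CCAAT in capitals.
Gadd45b, chr10:80929841-80930090, plus strand: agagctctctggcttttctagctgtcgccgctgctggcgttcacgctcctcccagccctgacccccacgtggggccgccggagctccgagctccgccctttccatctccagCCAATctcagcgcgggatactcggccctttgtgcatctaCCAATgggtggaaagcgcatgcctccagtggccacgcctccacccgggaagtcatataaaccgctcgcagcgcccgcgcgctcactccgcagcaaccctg
Glul, chr1:153899679-153899928, plus strand: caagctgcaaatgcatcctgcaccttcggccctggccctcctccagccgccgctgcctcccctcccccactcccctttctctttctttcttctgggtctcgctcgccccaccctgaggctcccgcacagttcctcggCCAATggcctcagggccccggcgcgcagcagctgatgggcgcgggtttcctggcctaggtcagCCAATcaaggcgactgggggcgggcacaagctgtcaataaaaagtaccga

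In these 3 windows there was no match to the antioxidant response element (TGACNNNGC, in 13.5% of all windows), the AP-1 site (TGANTCA, 6.7%), the cyclic AMP response element (TGACGNNA, 8.7%), the heat shock element (GAA, TTC and GAA with NN between them, 0.484%) or the amino acid and stress response element read by ATF4 (TGATGNAAN, 2.82%), each searched on both strands. That says only that these letters are not in the windows.

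Beyond Arc, the immediate early genes, which answer growth factors and stress within minutes to hours, stood above 2.1 mM at 2.8 mM more often than below it. Of 27 measured members 1 passed the test, Arc, 8 were higher and 0 lower at an unadjusted p under 0.05 (2.23% and 4.62% of all genes), and 11 were higher and 2 lower with no overlap between the groups (8.27% and 12.5% of all genes). The list's median log2 difference was 0.218, against 0.00691 over all genes. Its mean relative to the 2.1 mM mean was 1.09, 0.309 and 0.394 on the 2.8 mM arrays and 0.0486, -0.00626 and -0.0424 on the 2.1 mM arrays, so replicate 1 stood far above the others. Without it 3 members had an unadjusted p under 0.05 (1.71% of all genes higher) and the median was 0.129.

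The members differed in how far replicate 1 carried them. Fos, an AP-1 subunit, had 6.09, 2.60 and 2.44 at 2.8 mM and 2.40, 2.35 and 1.96 at 2.1 mM, so that replicate 1 alone was high. Its log2 difference of 1.47 did not pass (adjusted p = 0.702) and was 0.28 without replicate 1. Egr1, a zinc finger factor, had 7.01, 4.17 and 4.54 at 2.8 mM and 3.27, 3.30 and 3.12 at 2.1 mM (difference 2.01, adjusted p = 0.655; 1.12 without replicate 1), with all arrays of 2.8 mM higher but replicate 1 far above. Fosb, another AP-1 subunit, had 2.66, 0.74 and 0.93 at 2.8 mM and -0.71, -0.81 and -0.56 at 2.1 mM (difference 2.13, adjusted p = 0.227; 1.53 without replicate 1). Klf4, a Krüppel-like factor, differed by 2.03 (adjusted p = 0.636) and by 1.46 without replicate 1. Fosb and Klf4 have TGACGNNA in their windows, 2 of the 7 windows held among 12 genes on the rising side. These 12 are the 6 called genes, filled up with the largest other rises at an unadjusted p under 0.05 and no overlap. In Jun, the partner of Fos, the groups overlapped (difference -0.03, adjusted p = 1), and Myc, a growth factor-driven regulator, was at -0.31, -0.13 and -0.01 at 2.8 mM and at 0.34, 0.73 and 0.47 at 2.1 mM (difference -0.66, adjusted p = 0.962; -0.58 without replicate 1).

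Hbegf, a ligand of the epidermal growth factor receptor that is shed from the cell surface, had 3.19, 3.40 and 3.77 at 2.8 mM and 1.03, 1.18 and 1.28 at 2.1 mM. In this gene replicate 1 was the lowest of the 2.8 mM arrays, and the groups were far apart. Its difference of 2.29 (4.89-fold) did not pass (SE 0.45, adjusted p = 0.11), nor without replicate 1 (2.42, adjusted p = 0.266), but it passed when the 6 arrays were fitted alone (adjusted p = 0.0133). Rgcc, a regulator of the cell cycle, had 2.92, 2.77 and 2.84 at 2.8 mM and 1.26, 0.91 and 0.67 at 2.1 mM (difference 1.90, adjusted p = 0.355, and 0.0133 on the 6 arrays; 1.86 without replicate 1). Among the dual-specificity phosphatases and other brakes on MAP kinases, 2 of 14 were higher and 3 lower at an unadjusted p under 0.05 (2.23% and 4.62% of all genes), and none passed. Dusp1 had 5.47, 4.44 and 4.44 at 2.8 mM and 3.75, 3.54 and 3.55 at 2.1 mM (difference 1.17, adjusted p = 0.916, and 0.82 without replicate 1). Dusp2 differed by 0.88 (adjusted p = 0.582) and Dusp10 by 0.58 (adjusted p = 0.689). The ERK pathway's Spred1 had 5.01, 5.27 and 5.10 at 2.8 mM and 5.85, 5.84 and 5.69 at 2.1 mM (difference -0.67, adjusted p = 0.139; -0.61 without replicate 1). Dusp6, a phosphatase of ERK, had 1.85, 4.30 and 4.21 at 2.8 mM and 4.87, 4.76 and 4.69 at 2.1 mM (difference -1.32, adjusted p = 0.705; -0.51 without replicate 1), low on replicate 1 above all.

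Of the p53 and DNA damage list, genes for arrest, repair and death, 1 of 22 measured members passed, Gadd45b. At an unadjusted p under 0.05, 6 were higher and 0 lower (2.23% and 4.62% of all genes), and 10 were higher and 0 lower with no overlap between the groups (8.27% and 12.5%). The list's mean relative to 2.1 mM was 0.674 on replicate 1, 0.363 and 0.37 on replicates 2 and 3, and -0.1 to 0.122 on the 2.1 mM arrays. The median difference was 0.249 (0.256 without replicate 1), and without that array 2 members were higher at an unadjusted p under 0.05 (1.71% of all genes). Pmaip1, the death activator Noxa, had 5.10, 4.67 and 4.85 at 2.8 mM and 3.44, 3.08 and 3.02 at 2.1 mM (difference 1.70, adjusted p = 0.589; 1.58 without replicate 1). Trp53inp1, which aids p53, had 2.20, 2.27 and 2.46 at 2.8 mM and 1.18, 1.02 and 0.90 at 2.1 mM (difference 1.27, adjusted p = 0.804; 1.33 without replicate 1). Both were high on all 3 arrays of 2.8 mM. Gadd45g, in contrast, had 3.92, 0.82 and 0.84 at 2.8 mM and 0.55, 0.39 and 0.33 at 2.1 mM (difference 1.43, adjusted p = 0.681; 0.40 without replicate 1), high on replicate 1. Gadd45a differed by 1.16 (adjusted p = 0.702), and by 0.77 without replicate 1. Cdkn1a, the kinase inhibitor p21, had 6.69, 7.14 and 7.12 at 2.8 mM and 6.67, 6.59 and 6.52 at 2.1 mM (difference 0.39, adjusted p = 1; 0.54 without replicate 1). Mdm2, the ubiquitin ligase of p53, had 5.48, 5.19 and 5.28 at 2.8 mM and 4.62, 4.54 and 4.47 at 2.1 mM (difference 0.77, adjusted p = 0.755; 0.69 without replicate 1).

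In the heat shock list, the chaperones and cochaperones that refold oxidized proteins, none of 19 measured members passed. At an unadjusted p under 0.05, 4 were higher and 0 lower (2.23% and 4.62% of all genes), and without replicate 1 2 were higher (1.71%). With no overlap 8 were higher and 0 lower (8.27% and 12.5% of all genes), and the median was 0.136 (0.105 without replicate 1). Hspa1b, an inducible HSP70, had 7.37, 6.13 and 6.11 at 2.8 mM and 4.40, 4.50 and 4.28 at 2.1 mM. All 3 arrays at 2.8 mM lay above 2.1 mM, near the 3.5 mM mean of 6.76, and the difference of 2.15 (4.42-fold, SE 0.621) did not pass (adjusted p = 0.427; 1.73 without replicate 1). Its near-identical neighbour Hspa1a had 2.02, -1.37 and -1.24 at 2.8 mM and -1.44, -1.39 and -1.40 at 2.1 mM, so only replicate 1 was high (difference 1.22, adjusted p = 0.811; 0.11 without replicate 1). The upstream windows of Hspa1a and Hspa1b share 247 of 250 bases (98.8%), the genes' transcripts are alike as well, and which of them a probe set reads is uncertain. Dnajb1, the HSP40 partner of HSP70, had 5.72, 4.33 and 4.42 at 2.8 mM and 3.76, 3.62 and 3.64 at 2.1 mM (difference 1.15, adjusted p = 0.227; 0.70 without replicate 1). Bag3, a cochaperone of HSP70, had 4.09, 3.99 and 3.81 at 2.8 mM and 3.58, 3.41 and 3.39 at 2.1 mM (difference 0.50, adjusted p = 0.811; 0.43 without replicate 1). Hspa8 and Hspd1, which most cells make at all times, differed by 0.08 and -0.04 (adjusted p = 1 for each). Of 32 proteasome genes none passed, 0 were higher and 12 lower with no overlap (8.27% and 12.5% of all genes), and the median was -0.108 (-0.0787 without replicate 1).

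Most antioxidant genes controlled by NRF2 had lower values at 2.8 mM than at 2.1 mM, and 6 of 27 measured members had higher means. None passed, but 10 were lower and 0 higher at an unadjusted p under 0.05 (4.62% and 2.23% of all genes), and 18 were lower and 0 higher with no overlap between the groups (12.5% and 8.27%). The list's median was -0.321 (-0.169 without replicate 1, with 5 lower at an unadjusted p under 0.05, against 3.83% of all genes), and its mean relative to 2.1 mM was -0.753, -0.229 and -0.332 on the 2.8 mM arrays. Replicate 1 was the lowest of them, and all 3 lay below the 2.1 mM arrays, which ranged from -0.0359 to 0.0597.

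Slc7a11, the cystine importer that feeds glutathione synthesis, had 2.83, 5.67 and 5.48 at 2.8 mM and 6.16, 6.09 and 6.07 at 2.1 mM (difference -1.45, SE 0.52, adjusted p = 0.622; -0.53 without replicate 1). Gclm, the regulatory subunit of glutamate-cysteine ligase, had 4.62, 6.44 and 6.35 at 2.8 mM and 7.07, 6.98 and 6.96 at 2.1 mM (difference -1.20, adjusted p = 0.482; -0.61 without replicate 1). In both genes every 2.8 mM array was lower and replicate 1 by far the lowest. Srxn1, sulfiredoxin, which repairs oxidized peroxiredoxins, had 4.19, 6.42 and 6.20 at 2.8 mM and 6.40, 6.34 and 6.34 at 2.1 mM, so that replicates 2 and 3 lay at the 2.1 mM level (difference -0.76, adjusted p = 0.92; -0.05 without replicate 1). Hmox1, heme oxygenase 1, had 6.43, 7.25 and 7.18 at 2.8 mM and 7.68, 7.47 and 7.55 at 2.1 mM (difference -0.62, adjusted p = 0.6; -0.35 without replicate 1). Slc40a1, the iron exporter ferroportin, had 1.28, 2.89 and 2.69 at 2.8 mM and 3.88, 3.81 and 3.64 at 2.1 mM (difference -1.49, adjusted p = 0.355; -0.99 without replicate 1).

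Other members were lower by like amounts on all 3 arrays. Blvrb, a biliverdin reductase, had 3.35, 3.67 and 3.57 at 2.8 mM and 4.66, 4.56 and 4.52 at 2.1 mM (difference -1.05, adjusted p = 0.42; -0.96 without replicate 1). Cat, catalase, had 4.60, 4.60 and 4.54 at 2.8 mM and 5.51, 5.17 and 5.15 at 2.1 mM (difference -0.70, adjusted p = 0.453; -0.71 without replicate 1), and Gsr, glutathione reductase, had 3.95, 4.05 and 3.85 against 4.66, 4.60 and 4.55 at 2.1 mM (difference -0.65, adjusted p = 0.836; -0.65 without replicate 1). In these genes replicate 1 did not stand apart. Of 13 genes for iron and heme, which share Hmox1, Slc40a1, Blvrb and Fth1 with the antioxidant list, 4 were lower and 0 higher at an unadjusted p under 0.05 (4.62% and 2.23% of all genes), and the median was -0.263 (-0.208 without replicate 1). The metallothioneins Mt1 and Mt2, which bind zinc and copper, overlapped between the groups, with differences of -0.08 and -0.09 (adjusted p = 1 for each).

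**Figure D3:**
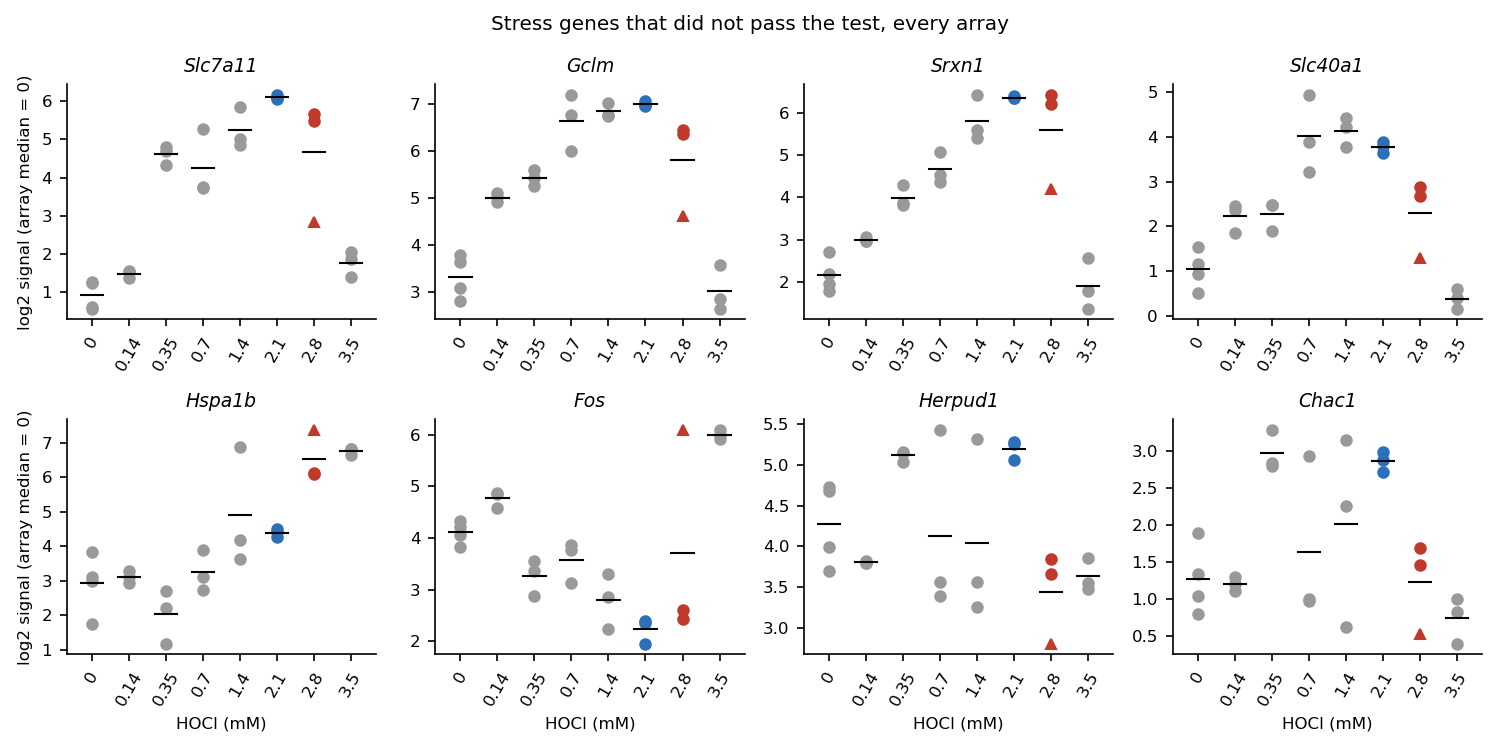
Log2 signal (vertical axis, array median at 0) of 8 stress genes that did not pass the test at 2.8 against 2.1 mM, on every array by HOCl dose in mM (horizontal axis, low to high). Red marks 2.8 mM (triangle, replicate 1), blue 2.1 mM, grey the other doses and bars the dose means; Slc7a11, Gclm and Srxn1 stand lowest at 2.8 mM on replicate 1 (2.83, 4.62 and 4.19), Fos stands high on it alone (6.09), and Hspa1b, Herpud1 and Chac1 differ from 2.1 mM on all 3 arrays.

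Among genes of the endoplasmic reticulum and of ATF4, Herpud1, Chac1 and Trib3 had far lower values at 2.8 mM than at 2.1 mM. Herpud1, which helps to remove misfolded proteins from the endoplasmic reticulum, had 2.81, 3.85 and 3.67 at 2.8 mM and 5.26, 5.28 and 5.07 at 2.1 mM. It was low on all 3 arrays and 3.39-fold lower on average (difference -1.76, SE 0.469, adjusted p = 0.372; -1.44 without replicate 1), the most negative difference among the genes with an unadjusted p under 0.05 and no overlap, without passing the test. Chac1, which degrades glutathione and is driven by ATF4, had 0.52, 1.69 and 1.46 at 2.8 mM and 2.87, 2.99 and 2.71 at 2.1 mM (difference -1.63, SE 0.506, adjusted p = 0.482; -1.28 without replicate 1). Trib3, a pseudokinase induced by ATF4, had 2.27, 2.46 and 2.20 at 2.8 mM and 3.48, 3.41 and 3.30 at 2.1 mM (difference -1.08, adjusted p = 0.898; -1.06 without replicate 1), with no array apart. In the fit of the 6 arrays alone the adjusted p was 0.0213 for Trib3, 0.0504 for Herpud1 and 0.0718 for Chac1.

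Of the 25 measured ATF4 genes none passed, 1 was higher and 3 lower at an unadjusted p under 0.05 (2.23% and 4.62% of all genes), 4 were higher and 9 lower with no overlap (8.27% and 12.5%), and the median was -0.197 (-0.276 without replicate 1). Against that trend Ppp1r15a, the phosphatase subunit GADD34 that ends the stress block on translation, had 4.98, 3.84 and 4.02 at 2.8 mM and 2.97, 2.91 and 2.84 at 2.1 mM (difference 1.37, adjusted p = 0.453; 1.02 without replicate 1). Atf3 differed by 0.88 (adjusted p = 0.949), Ddit3, the death-promoting factor CHOP, by 0.24 (adjusted p = 1) and Atf4 itself by -0.26 (adjusted p = 1). Asns and Psat1, enzymes of asparagine and serine synthesis, differed by -0.49 and -0.12 (adjusted p = 1 for each). Of 21 genes of the unfolded protein response none passed, and 0 were higher and 3 lower at an unadjusted p under 0.05 (2.23% and 4.62% of all genes). The 3 were Herpud1, Sel1l and Syvn1, the last of them a ubiquitin ligase that works with Sel1l. With no overlap 1 was higher and 6 lower (8.27% and 12.5% of all genes), and the median was -0.066 (-0.212 without replicate 1). Hspa5, the chaperone BiP, had 8.09, 7.80 and 7.84 at 2.8 mM and 8.01, 7.93 and 7.86 at 2.1 mM (difference -0.02, adjusted p = 1). Dnajb9, a cochaperone of BiP, had 5.94, 4.47 and 4.88 at 2.8 mM and 4.32, 4.10 and 4.05 at 2.1 mM (difference 0.94, adjusted p = 0.974), higher on all 3 arrays and most on replicate 1.

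Of the 12 genes with the lowest differences at an unadjusted p under 0.05 and no overlap, none passed the test. RefSeq's table held 9 of their upstream windows. TGATGNAAN, the element read by ATF4, stood in 3 of the 9 (33.3%, against 2.82% of all windows): Herpud1, Chac1 and the cystine importer Slc7a11. There was none in the 7 windows held among the 12 genes on the rising side, which include the 6 called genes. The genes were ranked by value, and the shares describe these windows only. The 3 windows are printed 5′ to 3′ in each gene's direction, with every match of the 6 motifs in capitals: TGATGNAAN or its reverse complement, TGACGNNA, TGACNNNGC, and CCAAT or its reverse complement.
Herpud1, chr8:94386179-94386428, plus strand: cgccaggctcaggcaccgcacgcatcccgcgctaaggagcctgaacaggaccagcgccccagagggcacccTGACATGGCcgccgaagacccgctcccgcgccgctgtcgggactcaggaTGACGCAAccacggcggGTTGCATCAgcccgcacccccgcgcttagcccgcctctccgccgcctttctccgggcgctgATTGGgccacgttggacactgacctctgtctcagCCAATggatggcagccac
Chac1, chr2:119350992-119351241, plus strand: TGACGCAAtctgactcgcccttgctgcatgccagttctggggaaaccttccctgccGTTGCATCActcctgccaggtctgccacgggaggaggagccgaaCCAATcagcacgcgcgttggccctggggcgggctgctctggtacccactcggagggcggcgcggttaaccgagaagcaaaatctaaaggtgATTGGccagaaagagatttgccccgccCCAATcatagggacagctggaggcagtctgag
Slc7a11, chr3:50443614-50443863, minus strand: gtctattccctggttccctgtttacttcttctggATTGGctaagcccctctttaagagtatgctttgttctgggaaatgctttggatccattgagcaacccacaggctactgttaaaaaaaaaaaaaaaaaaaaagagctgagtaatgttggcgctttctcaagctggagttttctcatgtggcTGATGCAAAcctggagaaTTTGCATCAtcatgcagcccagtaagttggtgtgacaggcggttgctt

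Herpud1 has TGACATGGC, TGACGCAA, 1 match of the ATF4 element and 2 of CCAAT. Chac1 has TGACGCAA, 1 match of the ATF4 element and 3 of CCAAT, and Slc7a11 has 2 matches of the ATF4 element, facing each other, and 1 of CCAAT. No match overlaps another. The values of the 3 genes differed in pattern, Herpud1 and Chac1 being lower on all 3 arrays and Slc7a11 mainly on replicate 1.

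Interferon-stimulated genes, effectors and sensors against viruses, were lower at 2.8 mM than at 2.1 mM in nearly every member, without passing the test. Of 24 measured members 23 had all arrays at 2.8 mM below all arrays at 2.1 mM (12.5% of all genes), 0 had a higher mean, and 2 were lower at an unadjusted p under 0.05 (4.62% of all genes). The list's median was -0.729 (-0.596 without replicate 1). Its mean relative to 2.1 mM was -1.11, -0.603 and -0.697 on the 2.8 mM arrays, against 0.17, -0.0804 and -0.0892 on the 2.1 mM arrays. The SE of the members in the fit of all doses ran up to 1.31, against 0.157 for the tightest member. Stat2, a signal transducer of type I interferon, had 0.41, 1.21 and 0.76 at 2.8 mM and 2.09, 1.75 and 1.85 at 2.1 mM (difference -1.10, SE 0.494, adjusted p = 0.816; adjusted p = 0.0806 on the 6 arrays). Cmpk2, a nucleotide kinase next to Rsad2, had 2.17, 3.10 and 3.02 at 2.8 mM and 4.39, 4.11 and 4.20 at 2.1 mM (difference -1.47, adjusted p = 0.977; -1.17 without replicate 1). Rsad2, viperin, had 3.02, 5.44 and 5.37 at 2.8 mM and 6.38, 6.14 and 6.23 at 2.1 mM (difference -1.64, adjusted p = 0.986; -0.84 without replicate 1). Ifnb1, interferon beta, was dim at -0.35, 0.00 and 0.04 at 2.8 mM and 0.30, 0.22 and 0.33 at 2.1 mM. The exception was Mx1, at 0.84, -0.39 and -0.47 at 2.8 mM and 0.34, -0.12 and 0.10 at 2.1 mM, where the groups overlapped.

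Toll-like receptors, which sense microbial products, were measured by 15 genes of their list, of which none passed and 2 had a higher mean. At an unadjusted p under 0.05, 4 were lower and 0 higher (4.62% and 2.23% of all genes, and 1 lower without replicate 1), 8 were lower and 0 higher with no overlap (12.5% and 8.27%), and the median was -0.378 (-0.37 without replicate 1). Tlr4, the receptor for lipopolysaccharide, had 1.49, 2.43 and 2.18 at 2.8 mM and 3.24, 3.02 and 2.88 at 2.1 mM (difference -1.02, adjusted p = 0.45; -0.75 without replicate 1). Irgm2 and Slfn8, interferon-induced genes among those 12 lowest at an unadjusted p under 0.05 and no overlap, differed by -1.50 and -1.46 (adjusted p = 0.816 for each). Without replicate 1 their differences were -0.93 and -1.10. Of the BCL2 family and apoptosis list, 19 genes, none passed, and 0 were higher and 2 lower at an unadjusted p under 0.05 (2.23% and 4.62% of all genes). Without replicate 1, 1 was higher and 2 lower (1.71% and 3.83%). Bid, which carries death receptor signals to mitochondria, had 3.68, 4.25 and 3.96 at 2.8 mM and 5.03, 4.95 and 4.92 at 2.1 mM (difference -1.002, adjusted p = 0.482; -0.86 without replicate 1). Mcl1, a survival member of the family, had 6.50, 6.68 and 6.72 at 2.8 mM and 6.31, 6.27 and 6.27 at 2.1 mM (difference 0.35, adjusted p = 0.869; 0.42 without replicate 1).

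Inflammatory genes of NF-kB, the factor behind cytokine and chemokine induction, were divided by replicate. Of 32 measured members none passed. At an unadjusted p under 0.05, 2 were lower and 0 higher, a count near the shares over all genes (4.62% and 2.23%). With no overlap 9 were lower and 1 higher (12.5% and 8.27% of all genes). The median was -0.282, but -0.0219 without replicate 1. The list's mean relative to 2.1 mM was -1.39 on replicate 1 and 0.00801 and -0.0803 on replicates 2 and 3. Cxcl2, a neutrophil attractant, had 5.31, 7.94 and 7.95 at 2.8 mM and 8.08, 7.90 and 8.08 at 2.1 mM (difference -0.96, adjusted p = 1; -0.08 without replicate 1). Ptgs2, cyclooxygenase 2, had 4.92, 7.31 and 7.18 at 2.8 mM and 7.50, 7.20 and 7.34 at 2.1 mM (difference -0.88, adjusted p = 1; -0.10 without replicate 1). On replicates 2 and 3 Cxcl2 and Ptgs2 lay at the 2.1 mM level. Tnfaip2, the list member with the lowest p, was lower on all 3 arrays. It had 2.94, 4.67 and 4.38 at 2.8 mM and 5.40, 5.21 and 5.00 at 2.1 mM (difference -1.21, adjusted p = 0.668, and -0.68 without replicate 1). Tnf, tumour necrosis factor, had 3.63, 5.68 and 5.47 at 2.8 mM and 6.45, 6.32 and 6.39 at 2.1 mM, so it was lower on all 3 arrays (difference -1.46, adjusted p = 0.913; -0.81 without replicate 1). Il1b, interleukin 1 beta, had 0.05, 2.71 and 2.88 at 2.8 mM against 1.63, 1.81 and 1.61 at 2.1 mM, and its difference of 0.20 joined a low replicate 1 with higher replicates 2 and 3 (adjusted p = 1). Without replicate 1 the difference of Il1b was 1.11, with an unadjusted p of 0.0653. Among genes outside the list, Procr, the endothelial protein C receptor, had 4.38, 6.67 and 6.56 at 2.8 mM and 6.69, 6.65 and 6.62 at 2.1 mM (adjusted p = 1), and Afp, alpha-fetoprotein, had 2.27, 3.74 and 3.77 at 2.8 mM and 4.79, 4.51 and 4.48 at 2.1 mM (difference -1.34, adjusted p = 0.789; -0.84 without replicate 1).

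Genes of cell division depended on replicate 1 in their direction. The 26 mitosis genes had a median of 0.426 with it and -0.0899 without it, and list means relative to 2.1 mM of 1.55 on replicate 1, -0.0526 and -0.12 on replicates 2 and 3, and -0.163 to 0.137 on the 2.1 mM arrays. None passed, and 3 were higher at an unadjusted p under 0.05 (2.23% of all genes), against 0 without replicate 1 (1.71%). Bub1, a kinase of the spindle checkpoint, had 5.40, 3.89 and 3.95 at 2.8 mM and 3.81, 3.67 and 3.47 at 2.1 mM (difference 0.76, adjusted p = 0.775; 0.27 without replicate 1). Aurkb, a kinase of chromosome segregation, had 3.59, 1.33 and 1.11 at 2.8 mM and 1.85, 1.90 and 1.70 at 2.1 mM (difference 0.19, adjusted p = 1; -0.60 without replicate 1). The 30 DNA replication genes did likewise, with a median of 0.298 (-0.0826 without replicate 1) and a list mean of 0.964, -0.0932 and -0.121 on the 2.8 mM arrays. H3f3b, a histone H3.3 gene, had 3.68, 1.24 and 1.27 at 2.8 mM and 0.81, 0.87 and 0.72 at 2.1 mM (difference 1.26, adjusted p = 0.514; 0.45 without replicate 1). On replicates 2 and 3 these lists lay near the 2.1 mM arrays.

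Housekeeping lists had median differences between -0.169 and 0.151. The medians were 0.106 for oxidative phosphorylation, 0.0208 for cytosolic ribosomal proteins, 0.0481 for mitochondrial ribosomal proteins, 0.151 for splicing factors and -0.169 for aminoacyl-tRNA synthetases, and none of their members passed. Without replicate 1 they were 0.0125, -0.00968, -0.116, 0.0597 and -0.175 in that order. With no overlap 7 of 28 splicing genes were higher and 0 lower (8.27% and 12.5% of all genes). Of 19 synthetases 1 was higher and 9 lower (8.27% and 12.5% of all genes). Oxidative phosphorylation had 1 higher and 0 lower of 28, cytosolic ribosomal proteins 2 and 0 of 20, and mitochondrial ribosomal proteins 0 and 4 of 26. Ddx5, an RNA helicase of the splicing list, had 6.98, 6.83 and 6.86 at 2.8 mM and 6.61, 6.43 and 6.39 at 2.1 mM (difference 0.42, adjusted p = 0.729; 0.37 without replicate 1). Vegfa, a vascular growth factor of the hypoxia list, had 3.07, 3.41 and 3.44 at 2.8 mM and 2.44, 2.39 and 2.59 at 2.1 mM (difference 0.84, adjusted p = 0.543; 0.96 without replicate 1). The control gene Actb had 8.35, 8.37 and 8.40 at 2.8 mM and 8.44, 8.46 and 8.43 at 2.1 mM (difference -0.07, adjusted p = 1).

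**Figure D4:**
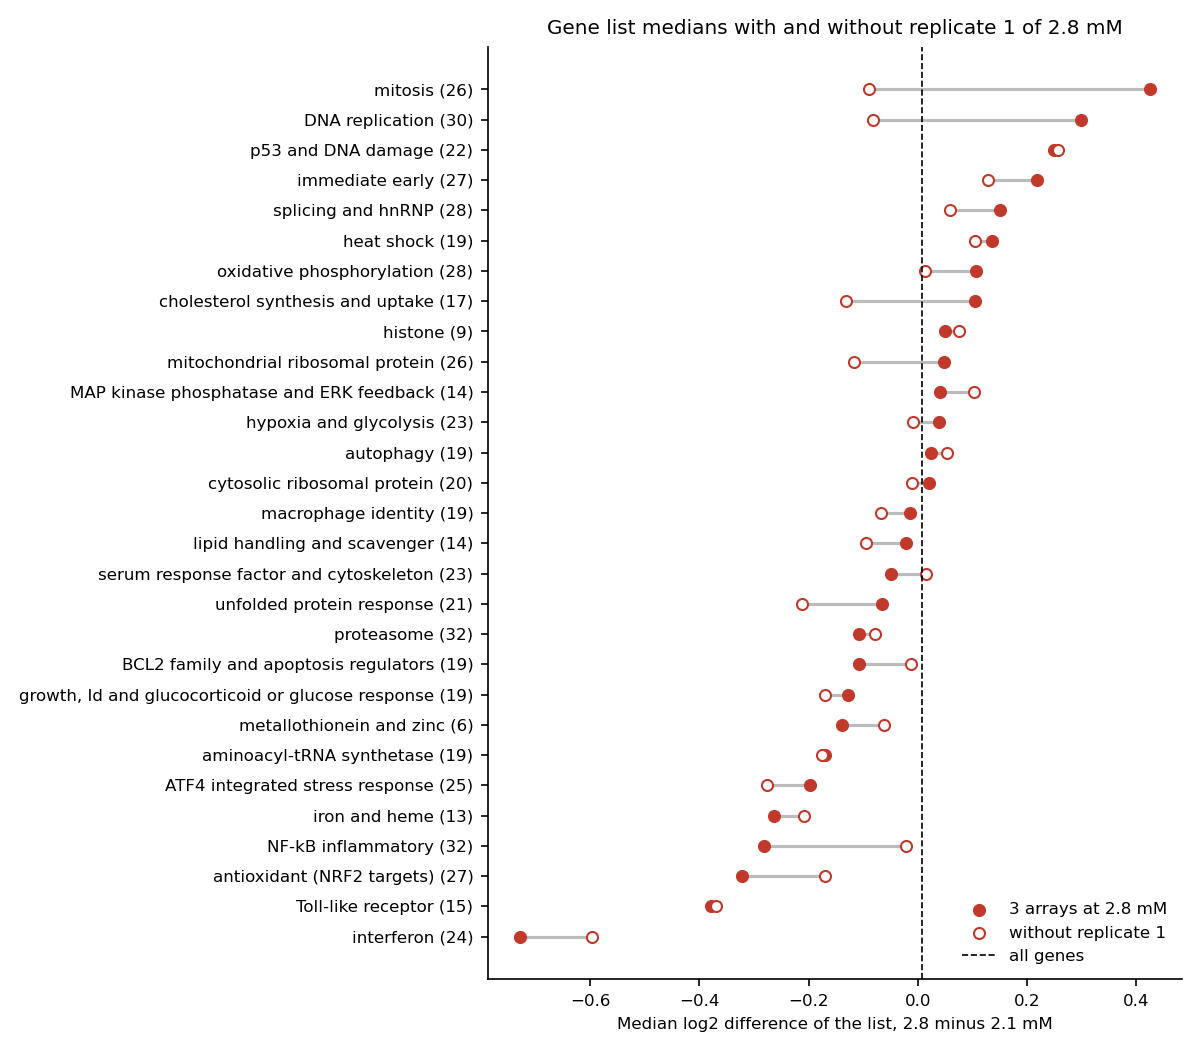
Median log2 difference of each gene list, 2.8 minus 2.1 mM (horizontal axis), for lists with the number of measured genes in brackets (vertical axis). Filled points use the 3 arrays at 2.8 mM, open points leave out replicate 1 and the dashed line is the all-gene median, 0.00691; the mitosis median lies at 0.426 filled and -0.0899 open, whereas the interferon, Toll-like receptor and p53 medians keep their side of 0.

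The step was also set against the next one, 3.5 minus 2.8 mM, by the difference between them. Both steps use the 2.8 mM arrays, so a gene far from its neighbours at 2.8 mM is favoured. For 307 of 45037 probe sets the steps differed (limma, adjusted p under 0.05, 0.682%), and 265 of them also without 2.8 mM replicate 1. Of genes 103 had a positive difference (0.566%) and 61 a negative one (0.335%). Of the 103, 85 had a higher mean at 2.8 mM than at both neighbouring doses, and the other 18 were lower at 2.8 than at 2.1 mM and lower still at 3.5 mM. Their median step was 0.371 here and -1.61 in the next step. Of the 61, 59 had a lower mean at 2.8 mM than at both neighbours, and 2 were higher at 2.8 mM and higher still at 3.5 mM. Their medians were -0.344 here and 1.02 in the next step.

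All 6 genes that rose were among the 103, which their choice by a high 2.8 mM mean on the same arrays largely fixes, so their place there is a description. Arc had means of 1.00, 3.89 and 1.71 at 2.1, 2.8 and 3.5 mM, and its steps differed by 5.07 (SE 0.793, adjusted p = 0.0042; adjusted p = 0.00934 without replicate 1). Gadd45b averaged 2.45, 4.98 and 3.41 over the same doses (difference of steps 4.10, adjusted p = 0.00301). Hbegf averaged 1.16, 3.45 and 1.03 (difference of steps 4.71, SE 0.779, adjusted p = 0.00689, and 0.00637 without replicate 1), so that in this test it passed. The uncharacterized transcript G530011O06Rik averaged 1.19, 3.00 and 0.17 (difference of steps 4.65, adjusted p = 0.0138). Zfp703 averaged 2.23, 2.98 and 1.55, and the tight arrays of this gene gave an adjusted p of 1.8e-05. These genes were higher at 2.8 mM than on either side of it.

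Among list members, Fosb, Fosl1 and Csrnp1 of the immediate early genes, Dnajb1, Bag3 and Hsph1 of the chaperones, Mdm2 of the p53 list and the phosphatase Dusp2 also had positive differences of steps. Without replicate 1 the calls of Fosb, Csrnp1, Dnajb1 and Bag3 were lost (adjusted p = 0.11, 0.0677, 0.0684 and 0.0588). Mdm2 averaged 4.55, 5.32 and 3.00 at 2.1, 2.8 and 3.5 mM (difference 3.09, adjusted p = 0.00981), and Dusp2 averaged 3.01, 3.89 and 1.07 (difference 3.70, adjusted p = 0.00233). For Hmox1, with means of 7.57, 6.95 and 3.82, the positive difference of 2.52 (adjusted p = 0.00323) came from a next step that was far lower still, -3.13 against -0.62. The thioredoxin reductase Txnrd1 did the same, with 6.56, 6.41 and 4.32 (difference 1.95, adjusted p = 0.0167). On the negative side stood the histone genes H3c7, with means of 0.18, 0.62 and 4.28 (difference -3.21, adjusted p = 0.00233), and H3c4, with -0.07, 0.14 and 2.62 (difference -2.28, adjusted p = 0.0137), with the larger difference in the next step. Septin10, a cytoskeletal GTPase, averaged 0.45, -0.28 and 1.60 (difference -2.60, adjusted p = 0.028), and Smad6, an inhibitor of bone morphogenetic protein signals, averaged -0.42, -0.96 and 0.40 (difference -1.90, adjusted p = 0.00737). Rbms1, on its called probe set, averaged 4.52, 3.48 and 3.78 (difference -1.32, adjusted p = 0.0098).

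**Figure D5:**
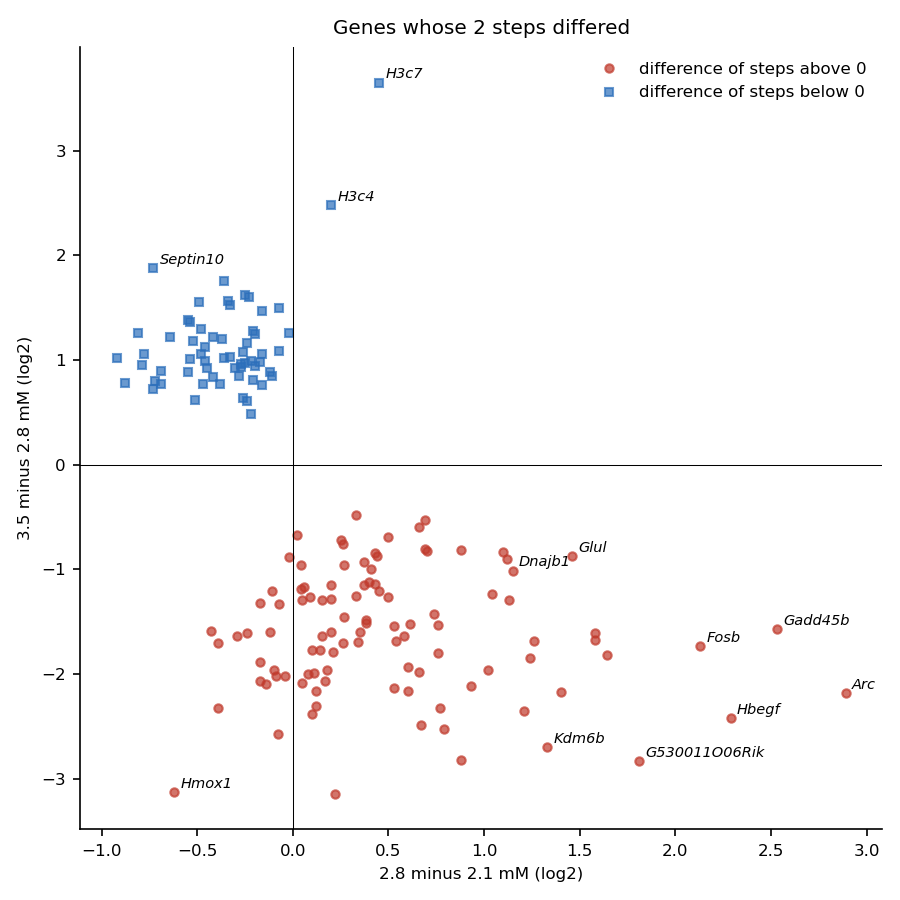
Log2 difference of 2.8 minus 2.1 mM (horizontal axis) against that of 3.5 minus 2.8 mM (vertical axis) for the genes whose 2 steps differed, red circles where the difference of steps is above 0 (103 genes) and blue squares where it is below 0 (61 genes). Arc, Gadd45b, Hbegf and Fosb lie at the lower right, higher at 2.8 mM than at both neighbours, and H3c7 and H3c4 lie at the top, with their larger step from 2.8 to 3.5 mM.

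The preceding step, 2.1 minus 1.4 mM, gave no such contrast. The difference between the 2 steps passed for 0 of 45037 probe sets (limma, 0%), with 1702 at an unadjusted p under 0.05, and for 0 without replicate 1, with 1140. Gadd45b differed by 0.05 in that step and by 2.53 in the step to 2.8 mM, Arc by -0.20 and 2.89, and Trim69 by 0.01 and 0.66. For Herpud1 the values were 1.15 and -1.76, and for Tnf 1.88 and -1.46. These pairs of differences share the 2.1 mM arrays, and none of the differences between them passed the test.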

How the data were processed

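Total RNA of each of 25 cultures was hybridized to its own array, and 6 arrays carry the comparison. The authors deposited log2 values per probe set, made with RMA per the submitters' processing notes (version not given in the sources used here), with each array's median at 0. The base is not stated and was inferred. From there, limma 3.58.1 in R 4.3.3 fitted 1 mean per dose to all 25 arrays and 45037 probe sets (64 controls set aside), with moderated two-sided tests and Benjamini-Hochberg adjustment over all of them (17 residual and 2.99 prior degrees of freedom). The difference between steps was a contrast of the same fit. Symbols came from the platform annotation, updated through Entrez ID: 34945 probe sets had 1 symbol (34741 matched in RefSeq's table), 932 several and 9160 none.

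The members and gene lists were chosen with earlier results of these data known. The naming rule took called genes with no overlap, each by its brightest probe set. It filled them up to 12 each way with the largest differences among genes with an unadjusted p under 0.05 and no overlap. It also took the called or lowest-p member of each list, stress and control genes, and the 3 largest differences of steps each way. Not all are described above. Of the 12 genes taken on the negative side, Hmga2 (-1.47), Atxn1 (-1.49), Layn (-1.39), Il1f9 (-1.43) and Ccl4 (-1.53) were left out. On the 6 arrays alone Hmga2 and Atxn1 passed (limma, adjusted p = 0.0315 and 0.0266) and the others did not. Some lowest-p list members were left out too. Other genes were named after their values were seen. Correlations of same-numbered arrays' deviations from their dose means were 0.0809, -0.017 and 0.215. With so few arrays per dose these values cannot show whether the replicate numbers pair the samples. The main fit treated the arrays as unpaired. Alternatives were other normalization, centring, filters, priors, sets of arrays, array weights and leaving out each array.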

Additional observations from a re-analysis of the deposited data

How the results depend on the processing

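The count of 11 probe sets called at 2.8 against 2.1 mM was 17 after quantile normalization, 143 with only the 6 arrays compared, 6 with only the 12 arrays of 1.4 to 3.5 mM, 1014 with array weights (30.9% of them higher, against 8 of 11 as reported) and 6 with 1 probe set per gene. Chosen after seeing the data, the fits without 2.8 mM replicate 1 called 3334 on the arrays compared and 6 on the arrays of 1.4 to 3.5 mM. Leaving out each array gave 0 to 43, within 1.5 times for 20 of 25 arrays: 43 without 1.4 mM replicate 1, 3 without 2.8 mM replicate 3, and 1, 0 and 2 without 2.1 mM replicates 1, 2 and 3 (for the 0, limma with 1948 at an unadjusted p under 0.05). The 307 probe sets whose step differed from the next were 494 after quantile normalization, 759 with only the arrays compared, 5671 with array weights, 202 with the replicate number as a block and 199 with 1 probe set per gene. Of the calls 72.3% were positive, against 60.8% with 1 probe set per gene, 42.3% with array weights and 42.1% without 2.8 mM replicate 1. Leaving out each array gave 37 to 1253, and 10 omissions moved the count by more than 1.5 times. At 2.8 mM these were replicates 1 (1253), 2 (68) and 3 (37), at 2.1 mM replicates 1 (182), 2 (161) and 3 (147), at 3.5 mM replicates 1 (724), 2 (165) and 3 (173), and at 1.4 mM replicate 1 (522). The difference from the preceding step gave 0 calls by limma under every alternative run. The replicate block left the first count at 11, and the array weights did not settle, ranging from 0.161 to 95.6. The causes were not tested.

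The difference turned positive for Hspa5 (0.01693, 0.03255 and 0.01221) and Jun (0.03105, 0.08155 and 0.05958) without 2.1 mM replicate 1, 2.8 mM replicate 2 and 2.8 mM replicate 3, and over all omissions reached down to -0.1113 for Hspa5 and -0.2189 for Jun, without 2.8 mM replicate 1. That of Il1b was -0.2163 and -0.3028 without 2.8 mM replicates 2 and 3, and up to 1.112 without replicate 1. Of 245 list medians recomputed 240 moved by less than their spread between the arrays of a dose. That spread includes 2.8 mM replicate 1, so the count cannot show that medians are stable to leaving it out. Without it the mitosis median went from 0.426 to -0.0899 and the DNA replication median from 0.298 to -0.0826. With 3 arrays a dose, differences of dim genes have the least signal over background.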
